A study of Homo sapiens with 12 samples.

Results

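Cholesterol synthesis was followed through 7 genes: HMGCS1, IDI1, FDFT1, SQLE and DHCR7, which encode enzymes of the pathway, and INSIG1 and SREBF2, which encode parts of its sterol switch. They were selected by their symbols from the 25268 genes in the expression table, a choice made with earlier results of these data known. The set had been put together as synthesis and uptake genes, yet none of the 7 acts in uptake itself, so the values concern synthesis and its control. The question was whether these genes differed between cells overexpressing RBMX, an RNA-binding protein, and control cells, and between polysomal and total RNA. The authors state that RBMX can lie in the nucleus and in the cytoplasm.

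Cells build cholesterol from acetyl-CoA through mevalonate, farnesyl pyrophosphate and squalene. When sterols in the endoplasmic reticulum run low, the membrane protein SREBP-2 (encoded by SREBF2) travels with its escort SCAP to the Golgi, is cut there, and its released part switches on the genes for these enzymes and for INSIG1. When sterols are plentiful, INSIG proteins hold SCAP and SREBP-2 back. Interferon signalling can lower sterol synthesis, among other routes by inducing CH25H, the enzyme that makes 25-hydroxycholesterol.

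The RNA came from HEK293, an established human embryonic kidney cell line, transiently transfected by Lipofectamine2000 with 2 µg of pCMV6-HIS-HA-RBMX, which carries tagged RBMX, or with a mock empty vector. The sample labels call the vector-only cells wild type. Cycloheximide, which stalls ribosomes on mRNA, was given to cells of both groups before lysis, and each lysate was spread on a sucrose gradient in which mRNAs carrying several ribosomes sediment in the polysomal fractions. Total RNA was a pool of 20% of every fraction of a gradient, each library was made from 500 ng of RNA, and there were 3 cultures per vector with a total and a polysomal library each, 12 libraries in all. Levels are FPKM, fragments scaled to transcript length and to library size. They are per length and can be set side by side between genes. How the library scaling was set is not given in the sources used here. In such bulk samples, fewer cells of a type and less RNA per cell cannot be told apart.

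RBMX itself was at 87.4 to 148 FPKM in the 6 control libraries and at 1072 to 2073 FPKM in the 6 RBMX libraries, in accord with the labels. The HEK293 markers PAX2, NEFM, KRT8, KRT18 and VIM were detected in every library, while PTPRC, ALB, PECAM1 and CD3E, which mark leukocytes, hepatocytes, endothelium and T cells, were at 0 to 0.226 FPKM. How many fragments each library held is unknown, and small RNA genes held 40.6 to 72.9% of the summed FPKM. Control culture 3 stood apart from control cultures 1 and 2: Spearman's rho across 14166 genes other than small RNA genes was 0.976 to 0.983 for pairs with it, against 0.997 and 0.998 between cultures 1 and 2 and 0.983 to 0.997 between RBMX cultures. Its HEK293 markers were low as well, summing to 395 FPKM in total RNA against 805 and 838 FPKM in control cultures 1 and 2. Values of the 7 genes against control cells are therefore given with and without control culture 3. This culture was picked out from the same data, so intervals without it can be too narrow.

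Promoter sequence was available for 5 of the 7 genes, not for FDFT1 and SQLE. The windows of HMGCS1, INSIG1 and SREBF2 are shown because these 3 genes behaved differently in control culture 3, as described further on. Each run holds the 250 bases before the transcription start from RefSeq (GRCh38.p14), 5′ to 3′ along the gene: chr5:43313413-43313662 on the minus strand for HMGCS1 (the upstream of its 2 starts), chr7:155297628-155297877 on the plus strand for INSIG1 and chr22:41832855-41833104 on the plus strand for SREBF2. Capitals mark CACCCCAC, the core of the sterol regulatory element that SREBPs bind, and CCAAT, the box bound by NF-Y, each searched on both strands, so that ATTGG is CCAAT on the other strand.
HMGCS1: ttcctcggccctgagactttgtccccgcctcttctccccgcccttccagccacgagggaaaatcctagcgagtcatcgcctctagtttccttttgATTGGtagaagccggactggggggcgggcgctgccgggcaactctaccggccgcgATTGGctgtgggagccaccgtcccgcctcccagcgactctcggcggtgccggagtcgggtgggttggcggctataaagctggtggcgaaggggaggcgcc
INSIG1: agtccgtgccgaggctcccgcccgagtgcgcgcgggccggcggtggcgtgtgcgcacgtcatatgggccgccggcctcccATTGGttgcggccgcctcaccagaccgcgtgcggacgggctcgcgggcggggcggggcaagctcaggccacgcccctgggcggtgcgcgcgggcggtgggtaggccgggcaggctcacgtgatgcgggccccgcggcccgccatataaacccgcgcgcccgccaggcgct
SREBF2: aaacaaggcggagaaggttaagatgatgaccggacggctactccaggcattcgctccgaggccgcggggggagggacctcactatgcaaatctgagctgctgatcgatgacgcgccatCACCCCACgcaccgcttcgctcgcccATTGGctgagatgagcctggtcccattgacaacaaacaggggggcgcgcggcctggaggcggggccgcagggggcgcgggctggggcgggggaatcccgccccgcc

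SREBF2 held the sterol element core with its first base 132 bases before the start, and an inverted CCAAT box followed 106 bases before it. HMGCS1 held inverted CCAAT boxes 155 and 100 bases before the start, and INSIG1 held one 170 bases before it. Over the 35116 promoter windows in the table, CACCCCAC was present in 2.43%, CCAAT in 32% and both in 0.644%. The 5 genes matched have 9 windows, since some have several starts, and 6 of the 9 windows held CCAAT, at least 1 per gene, while only that of SREBF2 held CACCCCAC. Of 48 further genes of sterol metabolism 36 matched, with 51 windows, of which 24 held CCAAT, and ABCA1, which exports cholesterol, was the only 1 with CACCCCAC. These matches describe letters in a short window and say nothing of binding. In RefSeq, INSIG1, IDI1, DHCR7, FDFT1 and SREBF2 overlap or adjoin other transcripts, such as antisense or divergent RNAs. The strand setting of the counting is not given in the sources used here, so reads of such partners cannot be told apart from theirs.

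All 7 genes were well expressed and passed the minimum mean of 0.5 FPKM, as did 14676 of all genes. Averaged over the 12 libraries, the order was IDI1 (149 FPKM), INSIG1 (129), FDFT1 (109), HMGCS1 (96.2), SREBF2 (54.2), DHCR7 (48.6) and SQLE (43.4). INSIG1 exceeded FDFT1 in 10 of 12 libraries and SREBF2 exceeded DHCR7 in 9, so these neighbours changed places between libraries. IDI1 exceeded INSIG1 in 10 of 12 libraries and in 10 of 10 without control culture 3. The steps from FDFT1 to HMGCS1, from HMGCS1 to SREBF2 and from DHCR7 to SQLE held in 11 of 12 libraries each.

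**Figure D1:**
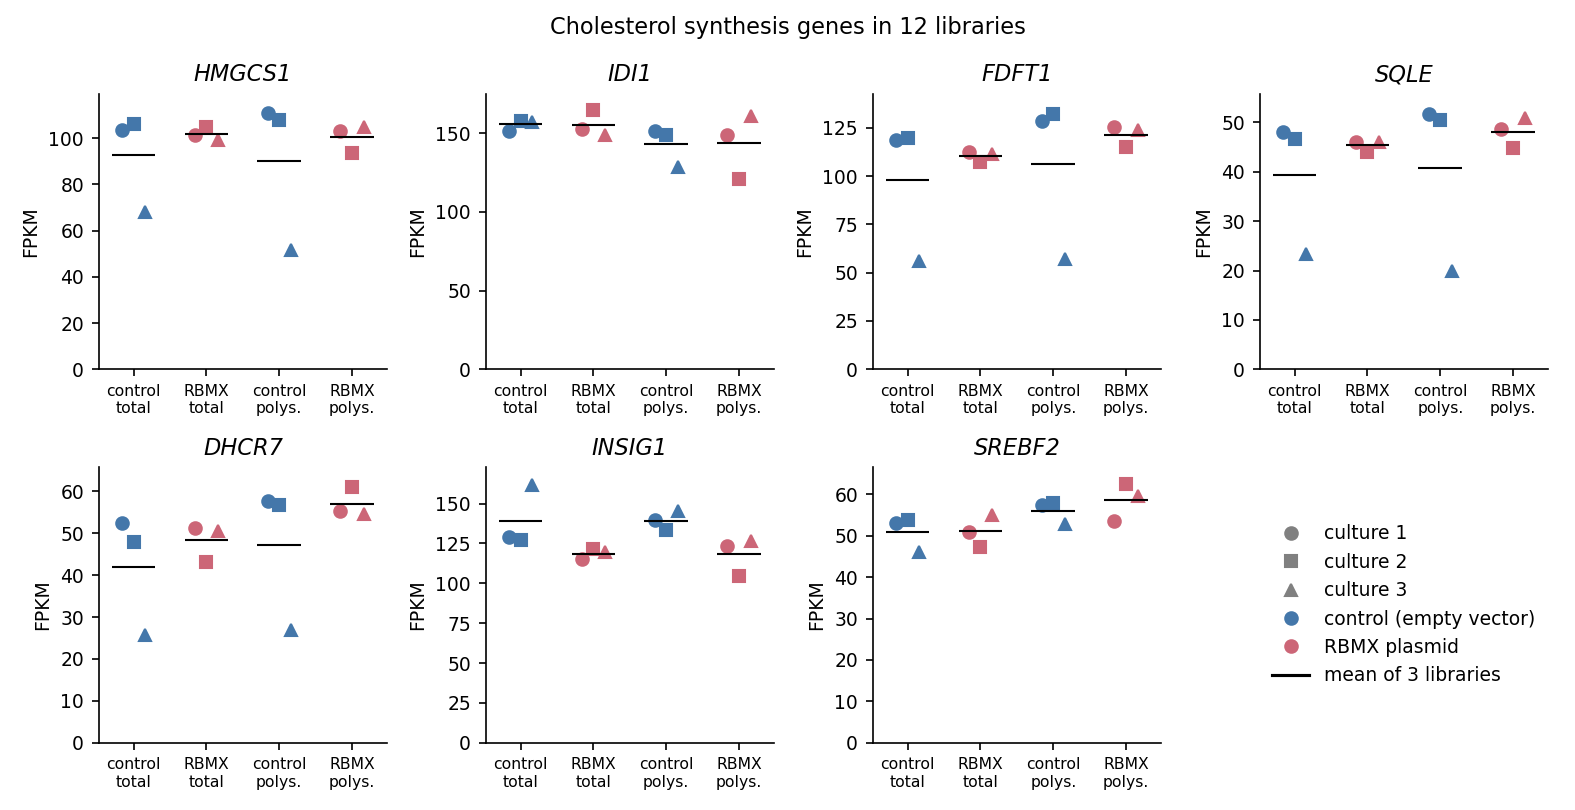
FPKM (linear axis from 0) of the 7 genes in each library, by vector and fraction, with a symbol per culture and a bar at the mean of 3 libraries. Control culture 3 lies far below the other libraries for HMGCS1, FDFT1, SQLE and DHCR7 (FDFT1 at 56.2 FPKM against 119 and 120 FPKM in total RNA), and INSIG1 is the gene whose 3 RBMX libraries lie below its 3 control libraries in both fractions.

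None of the 7 genes differed between RBMX and control cells at an adjusted p up to 0.05. In total RNA, 0 of 7 passed, where 0.164% of all genes tested did (24 genes), and in polysomal RNA 0 of 7 passed, where 0.0477% did (7 genes). The test was limma on log2(FPKM + 1) over the 6 libraries of a fraction, two-sided, with Benjamini-Hochberg adjustment over all 14676 genes. At an unadjusted p under 0.05, 0 of 7 passed in either fraction, against 18.8% of all genes tested in total and 11.7% in polysomal RNA. INSIG1 was the member closest to the threshold, and the estimates of HMGCS1, SQLE, FDFT1 and DHCR7 changed sign when control culture 3 was left out.

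HMGCS1 makes HMG-CoA, an early intermediate on the way to mevalonate. In total RNA it was at 104, 106 and 67.9 FPKM in control cultures 1 to 3 and at 101, 105 and 99.1 FPKM in RBMX cultures 1 to 3. In polysomal RNA it was at 111, 108 and 51.6 FPKM in control cells and at 103, 93.5 and 105 FPKM in RBMX cells. The RBMX libraries sat between control culture 3 and, for the most part, the other control cultures. The log2 difference, RBMX minus control, was 0.16 in total RNA (95% interval -0.29 to 0.62, limma adjusted p = 0.654) and 0.23 in polysomal RNA (-0.54 to 1.01, adjusted p = 0.754). When control culture 3 was left out it was -0.044 (-0.16 to 0.070) and -0.12 (-0.31 to 0.065).

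IDI1, the isomerase that supplies the building blocks of farnesyl pyrophosphate, was the steadier of the mevalonate members. Its total level was 152, 158 and 157 FPKM in control cells and 153, 165 and 149 FPKM in RBMX cells. In polysomal RNA it stood at 152, 149 and 129 FPKM in control cells and at 149, 121 and 161 FPKM in RBMX cells. The groups overlapped in both fractions, and control culture 3 was not low in total RNA. The log2 difference was -0.0026 in total RNA (-0.16 to 0.15, limma adjusted p = 0.992) and -0.0018 in polysomal RNA (-0.35 to 0.35, adjusted p = 1). Leaving out control culture 3 gave 0.0043 and -0.075.

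FDFT1, squalene synthase, commits farnesyl pyrophosphate to sterols. It was at 119, 120 and 56.2 FPKM in total RNA of control cells and at 112, 107 and 112 FPKM in RBMX cells. The polysomal values were 129, 132 and 57.3 FPKM in control cells and 125, 115 and 124 FPKM in RBMX cells. In both fractions every RBMX library lay below control cultures 1 and 2 and far above control culture 3. With all libraries the log2 difference was 0.25 in total RNA (-0.52 to 1.01, limma adjusted p = 0.688) and 0.29 in polysomal RNA (-0.56 to 1.13, adjusted p = 0.722). With control culture 3 left out it was -0.11 in total RNA (-0.22 to -0.0029, adjusted p = 0.190) and -0.10 in polysomal RNA (-0.27 to 0.064, adjusted p = 0.403). Only 2 control libraries then remained in each fraction, and the omission was picked from these data, so these intervals can be too narrow.

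SQLE, squalene epoxidase, carries out the next step. In total RNA it was at 48.1, 46.7 and 23.3 FPKM in control cells and at 46.1, 44.0 and 45.9 FPKM in RBMX cells. In polysomal RNA it was at 51.6, 50.6 and 19.8 FPKM in control cells and at 48.7, 44.8 and 50.9 FPKM in RBMX cells. Control culture 3 was again the lowest library in each fraction. The log2 difference was 0.27 in total RNA (-0.44 to 0.98, limma adjusted p = 0.637) and 0.36 in polysomal RNA (-0.60 to 1.31, adjusted p = 0.694), and without control culture 3 it was -0.062 (-0.17 to 0.047) and -0.086 (-0.27 to 0.098).

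DHCR7 reduces 7-dehydrocholesterol to cholesterol, the last step of the pathway. Its total level was 52.4, 48.0 and 25.8 FPKM in control cells and 51.2, 43.1 and 50.5 FPKM in RBMX cells. The polysomal level was 57.6, 56.8 and 26.9 FPKM in control cells and 55.2, 60.9 and 54.5 FPKM in RBMX cells. RBMX cells and control cultures 1 and 2 overlapped in both fractions, with control culture 3 below them. The log2 difference was 0.25 in total RNA (-0.44 to 0.94, limma adjusted p = 0.647) and 0.34 in polysomal RNA (-0.43 to 1.12, adjusted p = 0.636), and without control culture 3 it was -0.058 (-0.31 to 0.20) and -0.0094 (-0.19 to 0.17).

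INSIG1 differed most from the enzymes. It was at 129, 127 and 162 FPKM in total RNA of control cells and at 115, 121 and 119 FPKM in RBMX cells. In polysomal RNA it was at 139, 133 and 145 FPKM in control cells and at 123, 105 and 127 FPKM in RBMX cells. All RBMX libraries lay below all control libraries in both fractions, and control culture 3 was the highest library rather than the lowest. INSIG1 was the only member whose groups did not overlap, 1 of 7 in each fraction, against a background of 27.3% of all genes tested for total and 22.5% for polysomal RNA. The log2 difference was -0.22 in total RNA (-0.49 to 0.044, limma adjusted p = 0.324) and -0.24 in polysomal RNA (-0.49 to 0.015, adjusted p = 0.425). A two-sided exact permutation test gave p = 0.1 in each fraction, the smallest value that 3 against 3 libraries allow, and the other members gave exact p of 0.4 to 1. Leaving out control culture 3 brought the estimate to -0.11 in total RNA (-0.22 to 0.00071, adjusted p = 0.197) and -0.21 in polysomal RNA (-0.48 to 0.067, adjusted p = 0.341).

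SREBF2 encodes the transcription factor that drives the enzymes, and its mRNA varied little. Its total level was 53.1, 53.9 and 46.1 FPKM in control cells and 51.0, 47.3 and 55.0 FPKM in RBMX cells. In polysomal RNA it was at 57.5, 57.8 and 52.8 FPKM in control cells and at 53.4, 62.6 and 59.6 FPKM in RBMX cells. The groups overlapped in both fractions. The log2 difference was 0.0032 in total RNA (-0.22 to 0.23, limma adjusted p = 0.993) and 0.061 in polysomal RNA (-0.15 to 0.28, adjusted p = 0.770), and leaving out control culture 3 gave -0.066 and 0.019. These values concern the mRNA, since cleavage of the protein was not measured.

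**Figure D2:**
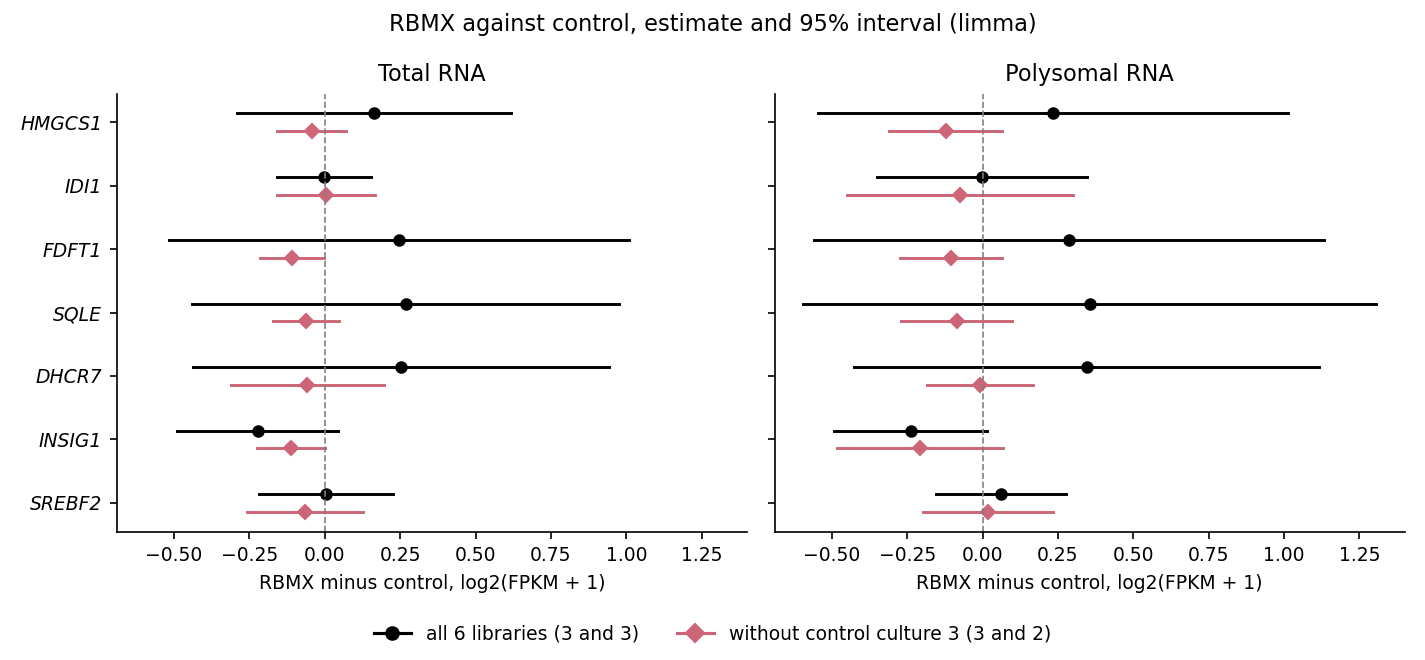
Log2(FPKM + 1) difference, RBMX minus control, of each gene with its 95% interval from limma in total (left) and polysomal RNA (right), with all 6 libraries (black circles) and without control culture 3 (red diamonds). The intervals of SQLE shrink from -0.44 to 0.98 to -0.17 to 0.047 in total RNA, and the estimates of HMGCS1, FDFT1, SQLE and DHCR7 pass from above 0 to below 0. The culture left out was picked from these data, so the red intervals can be too narrow.

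Without control culture 3, 0 of 7 genes passed the threshold in either fraction, where limma called 40 genes of total RNA and 11 genes of polysomal RNA. INSIG1, SQLE and FDFT1 then lay lower in RBMX cells without overlap in total RNA, 3 of 7 against 26.5% of all genes tested. In polysomal RNA these were HMGCS1, INSIG1 and FDFT1, 3 of 7 against 26.2%. Estimates were negative for 6 of 7 members in each fraction, with a median log2 difference of -0.062 (total) and -0.086 (polysomal), whereas with all libraries 5 of 7 were positive and the medians were 0.16 and 0.23.

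In control culture 3, HMGCS1, FDFT1, SQLE and DHCR7 were low, and IDI1, INSIG1 and SREBF2 stayed nearer to the other control cultures. Relative to the mean of control cultures 1 and 2, SQLE stood at 0.492 in total and 0.388 in polysomal RNA. FDFT1 stood at 0.472 and 0.440, DHCR7 at 0.514 and 0.469, and HMGCS1 at 0.647 and 0.472. IDI1 was at 1.01 and 0.857, SREBF2 at 0.863 and 0.915, and INSIG1 at 1.26 and 1.07. Thus 4 of 7 members were under a ratio of 0.7 in both fractions, a limit set after the values had been seen, against 9.73% of all genes tested, whose median ratio was 1.01 in total and 1.00 in polysomal RNA. Small RNA genes held a larger part of the summed FPKM in control culture 3, 72.9% against 61.8 and 55.8% in total RNA and 64.5% against 40.6 and 44.5% in polysomal RNA, and the part of this in the low values was not tested. RBMX culture 3 did not share the low values: its ratios to RBMX cultures 1 and 2 were 0.937 to 1.12 in total RNA and 0.939 to 1.20 in polysomal RNA for the 7 genes. A single culture has no replicate, so this is a description with no test.

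**Figure D3:**
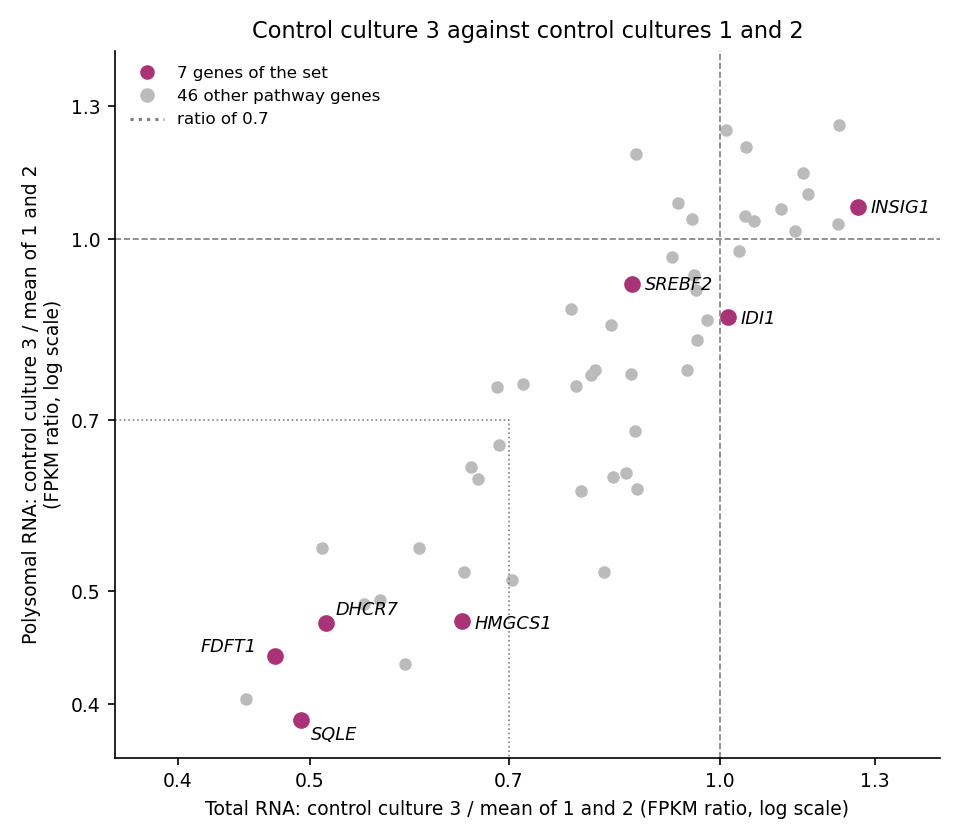
Ratio of control culture 3 to the mean of control cultures 1 and 2 in total RNA (x) and polysomal RNA (y), both on log scales, for the 7 genes (purple) and 46 other genes of sterol and lipid metabolism (grey). The 4 enzymes HMGCS1, FDFT1, SQLE and DHCR7 lie in the corner under 0.7 in both fractions, and INSIG1 lies above 1 in both.

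Other genes of the pathway shared the pattern in part. Among the 46 other listed genes that were tested, 10 were under 0.7 in both fractions. Of the 13 squalene and sterol enzymes, members included, 6 were, among them NSDHL, a sterol dehydrogenase, at 0.449 and 0.404. Of 8 targets of SREBP-1 in fatty acid synthesis, 4 were, such as SCD, the stearoyl-CoA desaturase, at 0.563 and 0.491. Low values extended beyond lipid genes: 13 of 17 interferon-stimulated genes and 4 of 5 HEK293 markers were under 0.7 too, and their part in the values of the sterol genes was not tested.

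No gene in the rest of the pathway passed the threshold in RBMX against control either. Of the 48 other listed genes, 46 passed the minimum and were tested, and limma called 0 in either fraction. In total RNA, 2 of the 46 were higher and 5 lower at an unadjusted p under 0.05, where 7.93% of all genes were higher and 10.8% lower, and the median log2 difference was 0.043, against 0 for all genes. In polysomal RNA, 0 were higher and 4 lower, where 5.16% and 6.53% of all genes were, with a median of 0.037 against 0. Without control culture 3 the medians were -0.026 and -0.052, and 0 genes were called.

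INSIG2, the paralog of INSIG1, had a log2 difference of -0.23 in total RNA (adjusted p = 0.246) and -0.32 in polysomal RNA (adjusted p = 0.425), and -0.16 and -0.28 without control culture 3. The polysomal value of INSIG2 also moved from -0.43 to -0.19 as single libraries were left out. SREBF1, the paralog of SREBF2, had 0.34 in both fractions (adjusted p = 0.343 and 0.482), but 0.16 in both without control culture 3. TM7SF2, a sterol reductase, had the smallest p among the mevalonate and sterol enzymes outside the set, with -0.19 in total RNA (adjusted p = 0.189) and -0.29 in polysomal RNA (adjusted p = 0.400), and -0.17 and -0.28 without control culture 3. None of these passed the threshold.

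Interferon-stimulated genes stood well apart in RBMX cells beside these small differences. Of 18 listed, 17 were tested. The list was chosen with earlier results of these data known, so its counts describe it and are no test. All 17 lay higher in RBMX cells without overlap in both fractions, against 11.9% of all genes in total and 10% in polysomal RNA. Their median log2 difference was 2.12 in total and 2.19 in polysomal RNA. With all libraries limma called 0 of them, although 17 and 16 were higher at an unadjusted p under 0.05, against 7.93% and 5.16% of all genes. Their summed FPKM in RBMX cultures 1 to 3 was 6850, 7180 and 2353 in total RNA, against 1188, 1322 and 757 in control cultures 1 to 3. With control culture 3 left out the medians were 1.95 in both fractions, again with 0 called. RBMX culture 3 had the lowest interferon-stimulated sum of the RBMX cultures in both fractions. Its omission therefore favours calls of these genes, and their count without it is a description only. Without RBMX culture 3, limma called 10 of 17 in total and 6 of 17 in polysomal RNA. It then called 178 and 126 genes altogether, and 0 of the 7 sterol genes passed.

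Over the same RBMX cultures, the 7 sterol genes summed to 630, 633 and 630 FPKM in total RNA and to 657, 602 and 682 FPKM in polysomal RNA. RBMX cultures 1 and 2 had the higher interferon-stimulated sum. Their sterol sum was close to that of RBMX culture 3 in total RNA. In polysomal RNA it was below, and the single library of RBMX culture 2 was the lowest. In control cells the sterol sum was 657, 660 and 538 FPKM in total RNA and 697, 687 and 482 FPKM in polysomal RNA, and control culture 3 was lowest in both sums. CH25H was at 0.224 to 0.685 FPKM, below the minimum in the mean, so no difference was fitted for it. Its total values overlapped between RBMX and control cells. Its polysomal values, near the floor, were 0.335, 0.224 and 0.247 FPKM in control and 0.422, 0.587 and 0.351 FPKM in RBMX cells. The RBMX values lay higher without overlap, which 10% of all genes tested did in polysomal RNA. The part of interferon-stimulated genes in the values of the sterol genes was not tested.

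**Figure D4:**
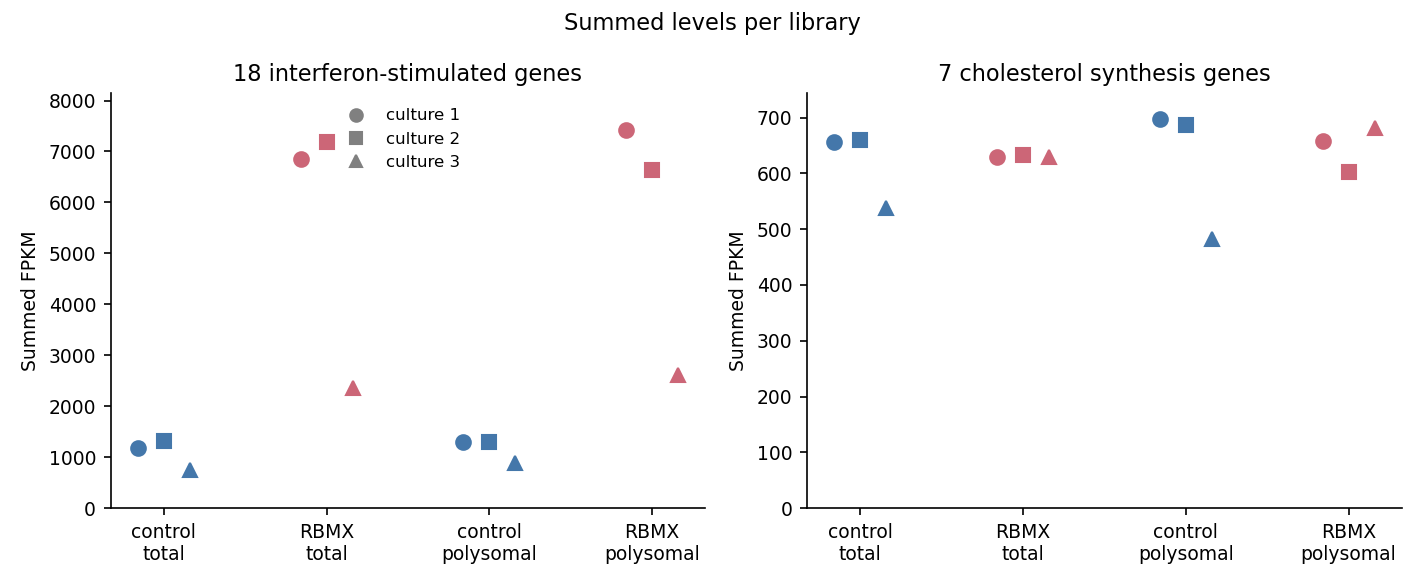
Summed FPKM per library (linear axes from 0) of the 18 interferon-stimulated genes (left) and of the 7 sterol genes (right), by vector and fraction, with a symbol per culture. The interferon-stimulated sum runs from 757 to 1322 FPKM in control and from 2353 to 7180 FPKM in RBMX total RNA. The sterol sum of RBMX cells runs from 630 to 633 FPKM in total and from 602 to 682 FPKM in polysomal RNA.

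Polysomal RNA was then set against total RNA to see whether the ribosome load of these mRNAs stood out. In control cells 0 of 7 genes passed the threshold, where 0.0818% of all genes tested did (12 genes), and in RBMX cells 0 of 7 passed, where 1.34% did (196 genes). The total and polysomal libraries of a culture come from the same gradient. With this pairing as a block, limma called 6 genes in control cells and 4 in RBMX cells, again with 0 of 7 members. Unadjusted p-values under 0.05 numbered 0 of 7 in control cells, against 8.04% of all genes tested, and 1 of 7 in RBMX cells, against 23%. With the pairing they numbered 1 of 7 (SREBF2) against 21% in control cells and 0 of 7 against 21.9% in RBMX cells.

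DHCR7 was the gene under 0.05 without the pairing in RBMX cells, with a log2 difference, polysomal minus total, of 0.23 (0.018 to 0.45, limma adjusted p = 0.197). With the pairing its interval was -0.072 to 0.54 (adjusted p = 0.273). Its ratio of polysomal to total FPKM was 1.08, 1.41 and 1.08 in RBMX cultures 1 to 3 and 1.10, 1.18 and 1.04 in control cultures 1 to 3. The ratio was above 1 in every culture, and RBMX culture 2 was the highest. Without RBMX culture 2 the log2 difference was 0.11.

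FDFT1 had ratios of 1.12, 1.07 and 1.11 in RBMX cells and of 1.08, 1.11 and 1.02 in control cells. Its log2 differences were 0.13 (limma adjusted p = 0.232) and 0.095 (adjusted p = 1). With the pairing its intervals were -0.010 to 0.28 (limma adjusted p = 0.239) and -0.034 to 0.22 (adjusted p = 0.324). FDFT1 and DHCR7 were the members whose polysomal libraries lay above the total libraries without overlap in RBMX cells, 2 of 7 against 30.8% of all genes tested. SREBF2 had ratios of 1.05, 1.32 and 1.08 in RBMX cells and of 1.08, 1.07 and 1.14 in control cells. Its log2 difference in control cells was 0.13 (limma adjusted p = 0.746), and with the pairing by culture the interval was 0.019 to 0.25 (adjusted p = 0.209). In RBMX cells it was 0.19 (adjusted p = 0.249), with a paired interval of -0.065 to 0.45 (adjusted p = 0.278).

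IDI1 lay on the other side, with a log2 difference of -0.12 in control cells (adjusted p = 0.781) and in RBMX cells (adjusted p = 0.574). Its ratios were 1.00, 0.942 and 0.820 in control cells and 0.972, 0.734 and 1.08 in RBMX cells. It was the only member without overlap between fractions in control cells, 1 of 7 against 14.9% of all genes tested, and the nearest libraries, at 151.7 and 151.6 FPKM, almost touched. HMGCS1, SQLE and INSIG1 had ratios below 1 in control culture 3 (0.760, 0.850 and 0.898) and above 1 in control cultures 1 and 2. Without control culture 3 their log2 differences were 0.060, 0.11 and 0.088 in control cells, 0 of 7 members passed, and 199 genes were called in all.

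**Figure D5:**
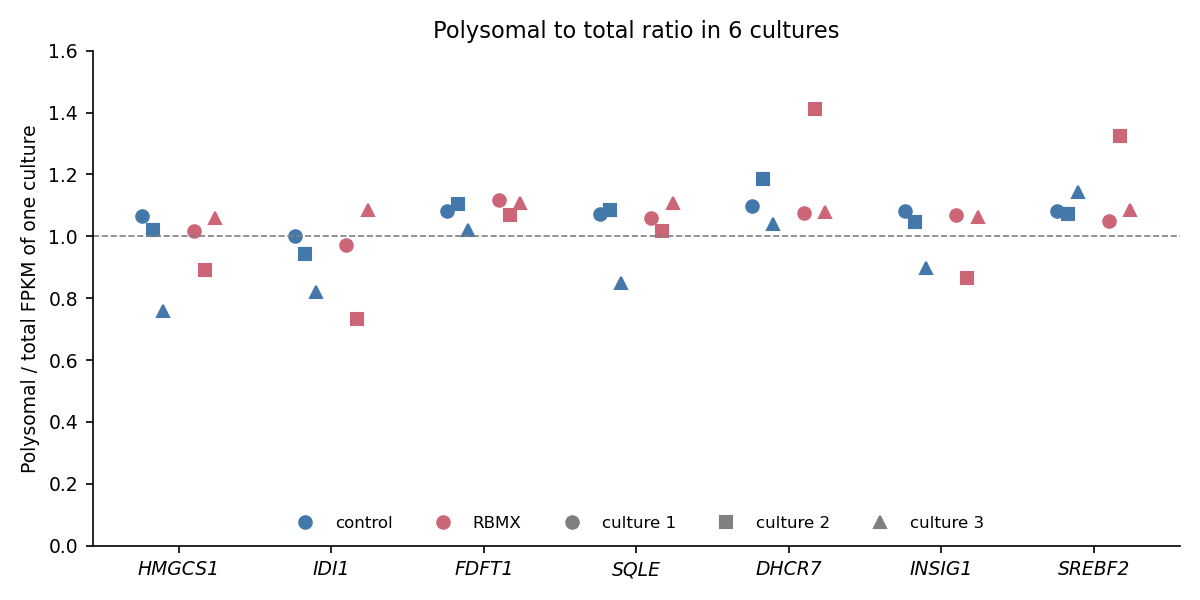
Ratio of polysomal to total FPKM (linear axis from 0, dashed line at 1) of the 7 genes in each culture, with control cells in blue and RBMX cells in red. FDFT1, DHCR7 and SREBF2 are above 1 in each culture, and RBMX culture 2 lies apart for DHCR7 (1.41), SREBF2 (1.32) and IDI1 (0.734).

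The RBMX effect did not differ between fractions at the threshold for any of the 7 genes. The difference of the log2 effects, polysomal minus total, ran from -0.016 for INSIG1 to 0.091 for DHCR7, with an adjusted p of 1 for each, and 0.0204% of all genes tested passed (3 genes, and 5 with the pairing as a block). At an unadjusted p under 0.05, 0 of 7 passed, against 0.6% of all genes tested. Leaving out control culture 3 gave -0.079 for HMGCS1, where all libraries gave 0.070, and -0.097 (INSIG1) to 0.086 (SREBF2) for the set. The precision was low in this fit, which left the pairing of fractions out: the interval of SQLE was -1.04 to 1.22. With the pairing as a block, over the same 12 libraries, it was -0.18 to 0.35. For SREBF2 the intervals were -0.22 to 0.34 and -0.19 to 0.31. TM7SF2, again the mevalonate or sterol enzyme outside the set with the smallest p, was at -0.10 (adjusted p = 1). In polysomal against total RNA the enzymes so chosen were TM7SF2 in control cells, at 0.16 (adjusted p = 0.597), and GGPS1, which makes geranylgeranyl pyrophosphate, in RBMX cells, at -0.39 (adjusted p = 0.105).

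How the members moved with each other depended on control culture 3. Over the 12 libraries, which come from 6 cultures, Pearson's r on log2(FPKM + 1) was 0.989 for SQLE with FDFT1 and -0.54 for HMGCS1 with INSIG1. Over the 10 libraries without control culture 3 it was 0.913 and 0.945. For HMGCS1 with INSIG1 the sign thus rested on control culture 3. DHCR7 and HMGCS1 went from 0.881 to -0.18. The genes most like the mean standardised level of the 7 members over the 12 libraries were RBBP7 (r = 0.991), ACTR3 (0.990), SERBP1 (0.989), FAM98B (0.988) and VDAC1 (0.986). Without control culture 3 their r was 0.959, 0.873, 0.922, 0.923 and 0.887. These correlations are descriptions over libraries that share cultures, and control culture 3 lies far from the rest in them.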

How the data were processed

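Total and polysomal RNA of 3 control and 3 RBMX cultures was sequenced with the TruSeq RNA kit, and the authors describe these as biological replicates. The authors deposited FPKM values for 25268 gene symbols in 12 libraries, and 0 columns were unmatched. The submitters' processing notes name CASAVA 1.8, TopHat2 2.0.13, Cufflinks 2.2.1, Cuffnorm and hg19 without giving roles, whereas the paper's methods describe hg38, GENCODE annotation and DESeq2 on counts for its own tests. Sequencing depth cannot be read from these values, so no counting error can be given.

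FPKM was set on the log2(FPKM + 1) scale, a scale that understates differences of low genes, and limma was run on the 14676 genes whose mean over the 12 libraries reached 0.5, using limma 3.58.1 in R 4.3.3 (lmFit, eBayes with trend, Benjamini-Hochberg over all genes tested, threshold 0.05). Each comparison used its 6 libraries, and the difference of effects used all 12. Groups came from the sample labels. Single members were also compared by an exact permutation test. Promoters and figures used Python 3.11.15 and matplotlib 3.10.9. The code was tested on simulated data with planted changes and independent libraries. That simulation held neither shared cultures nor an outlying culture.

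The members and lists were chosen with earlier results of these data known. Named genes were the 7 members, INSIG2 and SREBF1 (for RBMX against control), any listed pathway gene past the threshold and, failing that, the mevalonate or sterol enzyme with the smallest p in each comparison, RBMX, and the 5 genes of highest correlation. Other genes named, such as NSDHL, SCD and CH25H, were chosen after their values were seen. Some genes of the lists are not reported here by name.

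As a check of pairing, each library's deviation from its group mean was correlated over genes, giving 0.61, 0.69 and 0.835 between total and polysomal RNA of control cultures 1 to 3 and 0.222, 0.0243 and 0.662 for RBMX cultures 1 to 3. The shared gradient pairs these libraries by design. Other settings tried were quantile normalization, rescaling by median ratios, 0.1 as pseudocount, a minimum of 0.1, 1 or none, no trend in eBayes, the block, a joint fit of all 12 libraries, and leaving out each library in turn. Leaving out both libraries of a culture was added after seeing the data.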

Additional observations from a re-analysis of the deposited data

How the results depend on the processing

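The count of members past the threshold was 0 of 7 in each of the 5 comparisons and stayed at 0 under all 92 alternatives fitted over them. Signs were not stable: of 35 member estimates, 26 took the other sign under at least 1 alternative, without a call on either side. The alternatives include single libraries left out, which breaks the pairing of fractions by culture. INSIG1 kept its negative sign in RBMX against control under all 15 alternatives in each fraction, from -0.31 to -0.11 in total and from -0.29 to -0.16 in polysomal RNA (adjusted p of 0.197 to 0.656 and of 0.279 to 0.801).

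With a library or culture left out, the log2 differences whose sign turned ran as follows. For RBMX against control in total RNA these were HMGCS1 from -0.044 to 0.27, IDI1 from -0.045 to 0.028, FDFT1 from -0.11 to 0.43, SQLE from -0.062 to 0.44, DHCR7 from -0.058 to 0.44 and SREBF2 from -0.066 to 0.056. In polysomal RNA they were HMGCS1 from -0.12 to 0.42, IDI1 from -0.090 to 0.12, FDFT1 from -0.10 to 0.49, SQLE from -0.086 to 0.58 and DHCR7 from -0.0094 to 0.53. For the difference of effects they were HMGCS1 from -0.29 to 0.28, IDI1 from -0.12 to 0.16, FDFT1 from -0.35 to 0.40, SQLE from -0.35 to 0.42, DHCR7 from -0.26 to 0.40, INSIG1 from -0.13 to 0.084 and SREBF2 from -0.044 to 0.13. For polysomal against total RNA they were HMGCS1 from -0.30 to 0.27, FDFT1 from -0.26 to 0.48, SQLE from -0.33 to 0.44, DHCR7 from -0.17 to 0.50 and INSIG1 from -0.053 to 0.12 in control cells, and HMGCS1 from -0.070 to 0.052, IDI1 from -0.24 to 0.038 and INSIG1 from -0.062 to 0.091 in RBMX cells. In RBMX against control, HMGCS1, FDFT1, SQLE and DHCR7 turned only without control culture 3. For polysomal against total RNA in control cells, FDFT1 and DHCR7 turned only where a single library was left out, which breaks the pairing by culture. With both libraries of a culture left out they stayed positive, at 0.070 to 0.13 and at 0.095 to 0.19. The same held for FDFT1 in the difference of effects, at 0.0054 to 0.064.

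Under median-ratio rescaling IDI1 turned to 0.011 in total and 0.022 in polysomal RNA. Under quantile normalization SREBF2 turned to -0.059 in total RNA and INSIG1 to 0.058 in the difference of effects. Quantile normalization also moved polysomal against total RNA to 0.023 for SQLE in control cells and to 0.080 for HMGCS1, 0.10 for INSIG1 and 0.023 for IDI1 in RBMX cells. The cause of these turns was not tested, and no scaling moved the median of all genes by over 0.1.

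Over all genes, total RNA calls went from 24 to 62 with a minimum of 0.1, 77 with none, 60 with all 12 libraries in one fit, 40 without control culture 3 and 178 without RBMX culture 3. Polysomal calls went from 7 to 14, 31, 22, 11 and 126 in the same settings, to 14 without control culture 1 and to 11 without RBMX culture 2. For polysomal against total RNA, calls went from 12 to 41 with all 12 libraries in one fit and to 199 without control culture 3, and in RBMX cells from 196 to 61 without a minimum, 70 with quantile normalization, 21 with all 12 libraries and 10 to 42 with a library left out. Calls for the difference of effects went from 3 to at most 7.

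The replicate number as a block gave 13 calls in total and 3 in polysomal RNA for RBMX against control, where same-numbered control and RBMX libraries correlated with -0.168 to 0.34 and share only a number. With the pairing of fractions as a block, calls were 6 in control cells, 4 in RBMX cells and 5 for the difference of effects. The block changed no call among the 7 members. Depth is unknown, and with 3 libraries a group the intervals of SQLE, FDFT1 and DHCR7 with all libraries reach beyond a log2 difference of 0.9 in both fractions, so a difference of that size is inside their intervals.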
